A study of Mus musculus with 9 samples.

Results

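The genes described here encode the proteins of the cytosolic ribosome. A gene was included where its symbol was Rpl or Rps followed by a digit, or was Rpsa, Rplp0, Rplp1 or Rplp2. Symbols with -ps, which mark pseudogenes, and the Rps6k kinase genes were left out, and no measured value was used. The rule found 86 genes among the 23747 genes of the tables. Of these, 43 encode proteins of the large subunit, 31 encode proteins of the small subunit and 3 encode the acidic P proteins of the stalk. Another 5 are paralogs of a subunit gene (Rpl3l, Rpl22l1, Rpl39l, Rps27l and Rpl36al), and Rps23rg1 and Rps27rt are retrogenes. Rpl7l1 and Rps19bp1 match by symbol only, since they encode a ribosome assembly factor and a protein that binds Rps19.

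Single-nucleus RNA sequencing (sNuc-seq) measured the genes in heart tissue of 9 C57BL/6 mice, with 3 mice in each of 3 groups. The mice were supplied at 8 weeks of age and acclimatised for a week before gavage. The paper states that the tissue lay below the ligation, so the values are not those of whole hearts. In the labels the groups are sham, I/R and MUSKARDIA, the last being Shexiang Baoxin Pill (SBP). Sham mice had vehicle by gavage for 7 days and surgery in which the coronary artery was not tied. I/R mice had the same vehicle, then 30 min of ligation of the left anterior descending artery and 24 h of reperfusion, and SBP mice had the pill for 7 days in place of vehicle and then the same ligation and reperfusion. All 9 hearts were frozen before nuclei were isolated, and each library came from 1 mouse. In the paper's read statistics before filtering, all sham libraries stood apart from all I/R and SBP libraries. They had fewer low-quality reads, more reads with many undetermined bases, a larger share of high-quality bases and a lower GC content. In any comparison with sham, a difference in sequencing therefore cannot be told apart from an effect of the group. No group received SBP without ligation, so an effect of the pill alone cannot be told apart from its effect after I/R.

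A ribosome joins a small subunit, which reads the messenger RNA, to a large subunit, which forms the peptide bond. The subunits are assembled in the nucleolus from ribosomal RNA and imported proteins, and the messenger RNAs of these proteins are among the most abundant of the cytoplasm. They begin with a run of pyrimidines, the TOP motif, through which the kinase mTOR and the binding protein Larp1 set how much of them is translated. In sNuc-seq a nucleus holds few of these short, quickly spliced transcripts, and part of what is read with it is cytoplasmic RNA that clung to the nucleus or floated in the droplet. The share of unique molecular identifiers (UMIs) in these genes is therefore also used as a gauge of cytoplasmic RNA. In striated muscle, Rpl3l replaces its paralog Rpl3 in part of the ribosomes.

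The genes are compact. In the GENCODE annotation of GRCm38, 85 of the 86 were found by symbol (all but Rps23rg1), and the median span from start to end was 3368 bases, against 23336.5 bases for 17764 protein-coding genes of the tables. At least 1 small nucleolar RNA gene lay inside 30 of the 85 (35.3%), against 1.37% of the protein-coding genes. RefSeq gave a promoter window of 300 bases (250 before the start and 50 from it, GRCm38.p6) for 66 of the 86 genes. On either strand, the ETS-factor motif CCGGAAG was found in 25 of the 66 windows (37.9%), against 9.12% of 27025 windows of all genes. The YY1 motif AAGATGGC was found in 5 (7.6% against 2.88%) and the TOP-like letters CTCTTTCC in 9 (13.6% against 3.04%). A match describes the letters of the window only. Pseudogene rows that are near copies (Rpl36a-ps1, Rpl10-ps3, Rps18-ps4, Rps18-ps5, Rps18-ps6 and Rpl9-ps6) took few UMIs, at most 0.00167% in any fibroblast sample, but reads of these genes and of their copies may be split between them.

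Sequences are shown for 5 genes that recur below. Each runs from 120 bases before the start to 30 bases from it, 5′ to 3′ on the gene's own strand, with the motifs named above in capitals, on whichever strand they were found. Rps6, a phosphorylation target downstream of mTOR, lies at chr4:86857338-86857487 (minus strand), and Rpl38, whose protein sits at the edge of the large subunit, at chr11:114668460-114668609 (plus strand). Rps21, a small-subunit gene that stood out in endothelial nuclei, lies at chr2:180257259-180257408 (plus strand), and Rps27, the paralog of Rps27l, at chr3:90213619-90213768 (minus strand). Rpl3l, the muscle paralog, lies at chr17:24727706-24727855 (plus strand) and held none of the 3 motifs in this stretch.
Rps6: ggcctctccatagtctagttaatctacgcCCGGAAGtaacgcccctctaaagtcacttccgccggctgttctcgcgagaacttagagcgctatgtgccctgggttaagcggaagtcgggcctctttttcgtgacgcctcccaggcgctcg
Rpl38: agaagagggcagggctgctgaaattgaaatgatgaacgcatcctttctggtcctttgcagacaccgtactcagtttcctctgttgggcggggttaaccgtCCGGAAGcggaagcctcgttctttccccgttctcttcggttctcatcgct
Rps21: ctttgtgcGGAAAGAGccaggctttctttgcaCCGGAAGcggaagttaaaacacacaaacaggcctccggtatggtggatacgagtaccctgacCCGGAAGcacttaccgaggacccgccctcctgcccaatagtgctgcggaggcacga
Rps27: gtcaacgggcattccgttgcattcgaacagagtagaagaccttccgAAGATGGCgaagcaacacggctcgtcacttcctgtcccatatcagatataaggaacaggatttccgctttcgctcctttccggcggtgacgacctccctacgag
Rpl3l: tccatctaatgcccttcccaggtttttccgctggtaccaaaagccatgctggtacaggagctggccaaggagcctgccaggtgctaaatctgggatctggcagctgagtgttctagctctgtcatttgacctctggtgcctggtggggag

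The tables of the 9 samples held 49171 nuclei (4576 to 6418 each), fewer than the study states, for a reason not given in the sources used here, and 135423853 UMIs (10329520 to 18205985 each), with a median of 1540 to 2031 UMIs per nucleus. Nuclei were clustered without the ribosomal protein genes, so that their levels did not set the cell types, and clusters were named from marker genes. Cardiomyocyte-like, endothelial-like, fibroblast-like and myeloid-like nuclei are called by the type below, and every cluster of these types had at least 5 of its markers in over 10% of its nuclei. With the ribosomal protein genes kept in the clustering, 99.994% of the nuclei had the same type, and with types set by marker scores 80.588% did. The clusters were not evenly filled across groups. A fibroblast cluster led by Tnc and Postn held 2 to 4 nuclei per sham sample, against 133 to 447 per I/R sample and 153 to 271 per SBP sample, and a myeloid cluster led by Gpnmb and Arg1 held 6 to 14, 476 to 1686 and 271 to 1073. Of the barcode sequences, 290 occurred in 2 libraries and 48591 in 1.

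Ribosomal protein genes took a larger share of the UMIs after I/R than in sham in endothelial cells, fibroblasts and myeloid cells. In fibroblasts the share was 0.522%, 0.571% and 0.532% of UMIs in the 3 sham mice, 0.933%, 0.962% and 0.708% in I/R, and 0.766%, 0.773% and 0.718% in SBP. Every I/R mouse and every SBP mouse lay above every sham mouse, and I/R and SBP overlapped. The mean number of UMIs from these genes per fibroblast nucleus was 8.03, 10.0 and 11.5 in sham, 25.4, 23.1 and 17.5 in I/R, and 16.3, 21.6 and 14.7 in SBP. This number is not corrected for depth. Median UMIs per fibroblast nucleus were 1381, 1587 and 1929 in sham, 2105, 1836 and 2028.5 in I/R, and 1759, 2103 and 1696 in SBP. The summed share is a score over the genes and has no test.

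In myeloid cells sham mice had a share of 0.573% ± 0.0747 (SD, n = 3), I/R mice one of 0.774% ± 0.0628 and SBP mice one of 0.685% ± 0.0607. In endothelial cells it was 0.832% ± 0.0698, 0.995% ± 0.0588 and 0.877% ± 0.0988. In both types the I/R mice lay above the sham mice, while SBP overlapped both groups. Cardiomyocytes had the lowest share, with 0.263%, 0.353% and 0.238% in sham, 0.293%, 0.358% and 0.348% in I/R, and 0.291%, 0.283% and 0.276% in SBP. There, I/R and sham overlapped, and the SBP mice lay just below the I/R mice, with an overlap once Malat1, a nuclear RNA that took 10.6% to 18.6% of cardiomyocyte UMIs, was left out of the total. Over all nuclei the share was 0.465% ± 0.0664, 0.659% ± 0.0740 and 0.578% ± 0.0249, without overlap between sham and either other group.

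Split by symbol, with the stalk genes, paralogs, retrogenes and name-only genes included, both sets were higher in I/R fibroblasts. The genes whose symbols begin with Rps took 0.230% ± 0.0113 of UMIs in sham and 0.372% ± 0.0583 in I/R, and those whose symbols begin with Rpl 0.312% ± 0.0147 and 0.496% ± 0.0810. B cells, with 8 to 84 nuclei per sample, had shares of 0.772% ± 0.0873, 1.13% ± 0.0262 and 1.08% ± 0.0685, and both I/R and SBP lay above sham. T cells (0.883% ± 0.143, 1.12% ± 0.242 and 0.876% ± 0.186) overlapped across all groups.

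In cardiomyocytes the number of UMIs from these genes per nucleus was 10.7, 16.1 and 16.3 in sham, 18.3, 18.7 and 22.5 in I/R, and 17.4, 17.8 and 14.6 in SBP. I/R lay above both other groups in this count, which is not corrected for the depth of the nuclei.

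**Figure D1:**
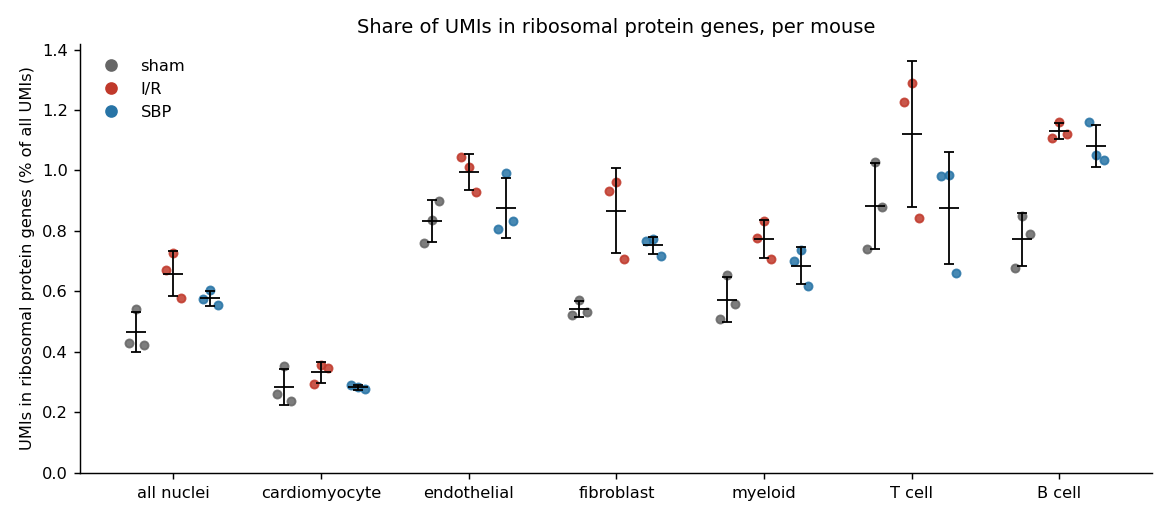
Share of UMIs in the 86 ribosomal protein genes (percent, y axis) by cell type and group, with a point for each mouse and the mean and SD of 3 mice. Cardiomyocytes lie between 0.238% and 0.358%, and the fibroblasts of all I/R and SBP mice lie above those of all sham mice.

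The genes were also read at a fixed depth. With every nucleus thinned to 500 UMIs, the expected share of nuclei without any UMI of these genes was 8.57% ± 1.10 in sham fibroblasts, 3.91% ± 1.32 in I/R and 5.58% ± 0.659 in SBP. It was 4.54% ± 1.24, 1.97% ± 0.559 and 3.18% ± 0.869 in endothelial cells, and 8.10% ± 2.37, 3.47% ± 0.946 and 5.33% ± 1.61 in myeloid cells. In cardiomyocytes it was 26.1% ± 5.28, 20.2% ± 2.16 and 25.8% ± 0.912. No nucleus of these 4 types was under 500 UMIs, and without thinning the group means were at most 0.218%. The I/R mice lay below the sham mice in the first 3 of these types, and overlapped them in cardiomyocytes, where the SBP mice lay above the I/R mice. Median UMIs per nucleus moved as well, from a mean of 1455 in sham to 1825 in I/R myeloid cells and from 1183 to 1326 in endothelial cells, in both without overlap.

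The uneven clusters move with the fibroblast and myeloid shares. In the main fibroblast cluster alone (led by Abca8a, 1008 to 1728 nuclei per sample) sham mice had 0.541% ± 0.0260, I/R mice 0.685% ± 0.0729 and SBP mice 0.631% ± 0.0189, and both injured groups still lay above sham. The cluster led by Tnc had 1.23% ± 0.122 in I/R and 1.16% ± 0.102 in SBP. In the myeloid cluster led by Cd163 (357 to 758 nuclei per sample) the share was 0.568% ± 0.0709, 0.700% ± 0.0498 and 0.600% ± 0.0432, and I/R overlapped sham. In the main endothelial cluster (led by Adgrl4) it was 0.911% ± 0.0107, 1.09% ± 0.0893 and 1.00% ± 0.131, with I/R above sham.

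Cardiomyocyte and respiratory chain transcripts went the other way in the same nuclei, while the share of 18 translation factor and other TOP genes was higher in I/R, as from 0.107% to 0.161% in fibroblasts. The 13 cardiomyocyte transcripts listed as a gauge of leaked cytoplasm (Actc1, Myl2, Myl3, Tnni3, Tnnt2, Tnnc1, Tpm1, Cox6a2, Cox7a1, Mb, Ckm, Pgam2 and Fabp3) took 0.407% to 0.618% of fibroblast UMIs in sham, 0.163% to 0.230% in I/R and 0.186% to 0.245% in SBP. In endothelial cells the ranges were 0.724% to 1.03%, 0.298% to 0.485% and 0.330% to 0.431%, and in myeloid cells 0.485% to 0.707%, 0.159% to 0.270% and 0.211% to 0.268%. None of the 13 was at 0 in any library of these 3 types. Within cardiomyocytes, too, the median log2 difference of the 13 between I/R and sham was −0.67, against −0.03 over all genes. Genes of the respiratory chain also fell in share, from 0.698% ± 0.111 in sham to 0.436% ± 0.0784 in I/R fibroblasts. Their list takes in ATP synthase genes, and it shares Cox6a2 and Cox7a1 with the 13 cardiomyocyte transcripts. In the same nuclei the ribosomal protein share was higher after I/R, as given above.

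**Figure D2:**
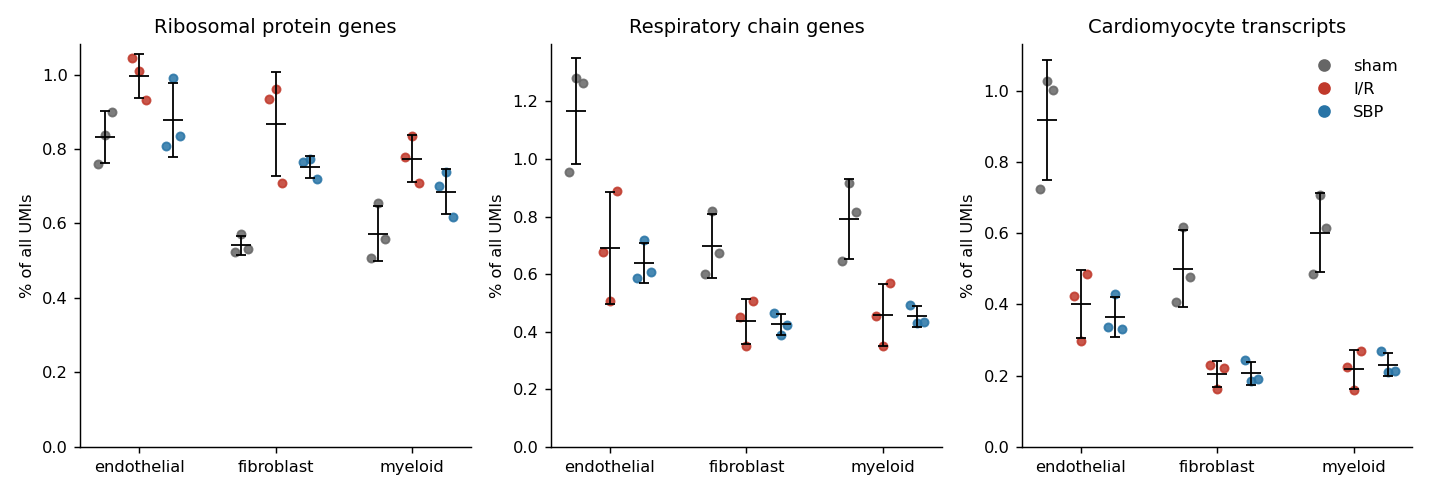
Share of UMIs (percent, y axis) of ribosomal protein genes, respiratory chain genes and 13 cardiomyocyte transcripts in endothelial, fibroblast and myeloid nuclei, with a point per mouse and the mean and SD of 3 mice per group. In fibroblasts the ribosomal protein points lie higher in I/R than in sham, and the other points lie lower. Cox6a2 and Cox7a1 are in both of the other lists.

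Between cell types, the genes were tested on UMIs summed per mouse and type, as log2(CPM + 1), where CPM is the UMI count scaled to a common library total with TMM factors (trimmed mean of M values, which centres the bulk of genes). Each type was set against the mean of the other 3 with limma, with the mouse as a block. Calls needed an absolute log2 difference over 0.25 and a p, adjusted by Benjamini and Hochberg's method, no higher than 0.05. Rpl39l and Rps23rg1 did not pass the filter on low values, which left 84 genes. In cardiomyocytes 82 of the 84 were called lower and 1, Rpl3l, higher, where 43.0% and 36.2% of 14682 genes tested were called lower and higher. The remaining gene, Rpl10, a protein of the subunit interface, had a log2 difference of −0.12 (SE 0.07). The largest falls were those of the small-subunit genes Rps16 (−1.05, SE 0.07), Rps12 (−1.04, SE 0.06) and Rps21 (−0.99, SE 0.06), then of Rpl7 (−0.98, SE 0.08) and Rps27a (−0.97, SE 0.08), which encodes a ubiquitin fusion.

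Endothelial cells were the counterpart, with 74 genes called higher and 2 lower, against 24.9% and 35.7% of all genes. The leading genes were Rps21 (0.88, SE 0.06), Rps3 (0.81, SE 0.09), Rps6 (0.80, SE 0.08), Rps27 (0.78, SE 0.07) and Rps15 (0.78, SE 0.07). Rps21 had 204 ± 20.6 CPM (SD, n = 9) in endothelial cells, with mice between 166 and 238, and 76.3 ± 7.39 CPM in cardiomyocytes, with mice between 64.7 and 89.5. The types did not overlap, and endothelial cells were the highest of the 4 types in 9 of 9 mice. The 2 genes called lower were Rpl3l (−0.48) and Rpl10a (−0.34). Depth differed between the types. Median UMIs per nucleus ran from 1088 to 1367 across mice in endothelial cells and from 3174 to 5717 in cardiomyocytes. They ran from 1381 to 2105 in fibroblasts and from 1364 to 1916 in myeloid cells. The calls between types compare scaled shares of UMIs and not amounts per nucleus, and the part of depth in them was not tested.

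Fibroblasts had 15 genes called higher and 1 lower (28.6% and 34.3% of all genes), and myeloid cells 8 higher and 3 lower (30.3% and 42.5%). In fibroblasts the leading genes were Rpl10a (0.61, SE 0.07), Rps12 (0.57, SE 0.06), Rpl13a (0.48, SE 0.11), Rpl3 (0.38, SE 0.09) and Rpl12 (0.37, SE 0.08), and Rpl3l was lower (−1.64, SE 0.13). In myeloid cells they were Rps9 (0.67, SE 0.07), Rpl36al (0.50, SE 0.08), Rpl3 (0.45, SE 0.09), Rpl10a (0.44, SE 0.07) and Rpl7l1 (0.38, SE 0.11), and Rpl3l (−1.74), Rps14 (−0.33) and Rpl24 (−0.25) were lower. Rpl10a and Rps9 thus departed from the order of most genes. Rpl10a had 128 ± 33.2 CPM in fibroblasts, 117 ± 26.8 in myeloid cells, 76.2 ± 11.6 in endothelial cells and 63.1 ± 13.1 in cardiomyocytes (SD, n = 9). Rps9 had 160 ± 50.1 CPM in myeloid cells and was the highest of the 4 types there in 8 of 9 mice.

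The fibroblast and myeloid counts depend on the scaling. With total UMIs in place of TMM factors, 62 genes were called higher and 1 lower in fibroblasts, against 38.8% and 26.1% of all genes. In myeloid cells 34 were called higher and 1 lower, against 40.1% and 33.6% of all genes. The myeloid count called higher is near that share. That scaling moved the median of all genes by 0.18 in fibroblasts, 0.22 in myeloid cells, 0.20 in endothelial cells and −0.58 in cardiomyocytes (log2). Relative to the median of all genes, the median of the ribosomal protein genes was 0.19 with either scaling in fibroblasts, 0.14 in myeloid cells, and −0.67 with TMM and −0.73 with totals in cardiomyocytes. With TMM factors, the fibroblast count, 15 higher and 1 lower with all mice, was 28 in all without sham replicate 2. As plain shares of UMIs, 80 of the 84 genes were lowest in cardiomyocytes in 9 of 9 mice, and 34 were highest in endothelial cells in 9 of 9 mice. These 2 counts were not made over all genes, so they are not read as a trait of the ribosomal protein genes. With total UMIs, limma called 83 of the 84 lower in cardiomyocytes, against 65.5% of all genes. It called 78 higher in endothelial cells, against 36.0% of all genes.

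**Figure D3:**
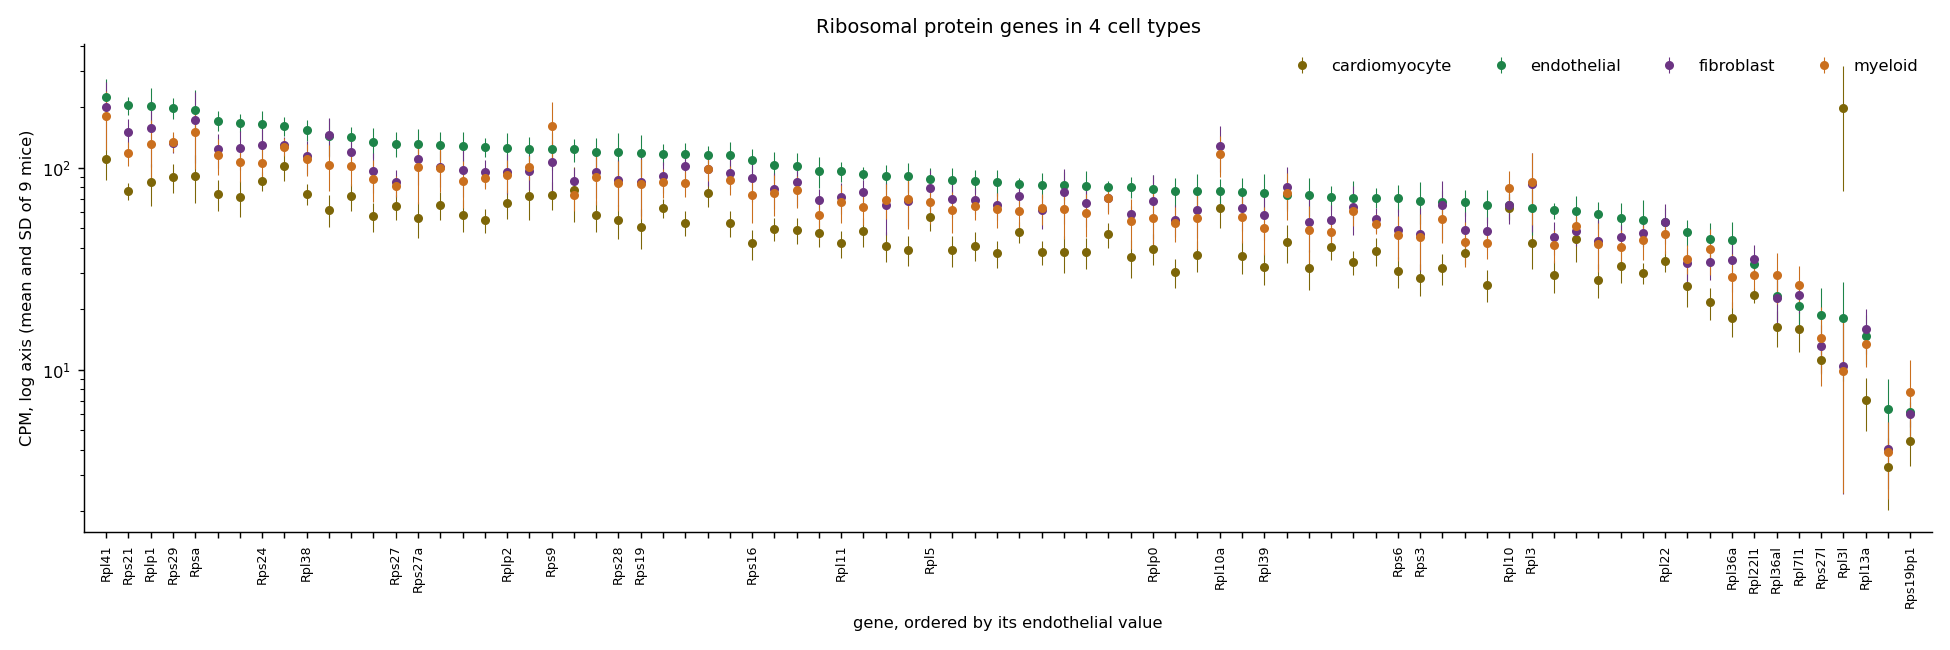
Level of 82 ribosomal protein genes in cardiomyocytes, endothelial cells, fibroblasts and myeloid cells (CPM, log axis), with the mean and SD of 9 mice and names under the genes set for naming and Rps9, Rps16 and Rps21. Rpl3l is the gene that is highest in cardiomyocytes, and Rps21 is higher in endothelial cells, at 204 CPM, than in the other types.

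The effect of I/R was tested gene by gene within each type, with limma on the 9 mice and 3 groups and adjustment over all genes tested. Each contrast with sham also holds the difference in read quality described above, which the fit could not separate from the group. The contrasts of I/R and of SBP with sham share the sham mice, and those with I/R share the I/R mice. In fibroblasts 42 of 84 genes were called higher and 1 lower in I/R, against 6.51% and 5.22% of 13077 genes. Their log2 differences ran from 0.45 to 1.25, the median over all 84 was 0.54 (−0.01 over all genes), and 67 of the 84 had every I/R mouse above every sham mouse (13.8% of all genes). The count was 23 without sham replicate 1, 24 without sham replicate 3, 27 without I/R replicate 1 and 14 without I/R replicate 2. In the main fibroblast cluster alone, a choice made after the data were seen, 5 were called higher (Rps3, Rpsa, Rps19, Rps28 and Rpl17) and Rpl3l lower (2.21% and 2.28% of genes), with a median of 0.34.

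Rpl3, which reaches towards the peptidyl transferase centre of the large subunit, had the largest rise in fibroblasts. It had 53.0, 43.5 and 49.8 CPM in the sham mice, 135, 144 and 82.2 in I/R, and 104, 119 and 88.0 in SBP. All I/R and SBP mice lay above all sham mice, and the log2 difference of I/R from sham was 1.25 (SE 0.21, limma adjusted p 0.00283). In the main fibroblast cluster alone the difference was 0.32 and was not called (limma adjusted p 0.361). Reads of Rpl3 and of Syngr1, which overlaps it on the opposite strand, may not be fully separated.

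Rps3, a protein at the messenger RNA entry that also has a role in DNA repair, had 24.2, 32.6 and 35.2 CPM in sham, 67.0, 76.9 and 61.5 in I/R, and 59.5, 59.6 and 49.8 in SBP. Its log2 difference was 1.14 (SE 0.18, limma adjusted p 0.00168), and neither I/R nor SBP overlapped sham. Rpsa, which also serves as a laminin receptor, had 113, 132 and 102 CPM in sham, 252, 330 and 175 in I/R, and 214, 202 and 182 in SBP. It rose by 1.08 (SE 0.20, adjusted p 0.00550), again without overlap.

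Rps19, the gene most often mutated in Diamond-Blackfan anaemia, had 57.9, 62.7 and 58.8 CPM in sham, 122, 143 and 103 in I/R, and 100.2, 107 and 89.6 in SBP. The sham mice were close together and all others lay above them (1.01, SE 0.15, limma adjusted p 0.00150). Rplp1, a stalk protein that recruits elongation factors, had 95.6, 117 and 125 CPM in sham, 229, 294 and 153 in I/R, and 175, 187 and 174 in SBP. It rose by 0.95 (SE 0.21, limma adjusted p 0.0124), or by 0.70 without a call in the main cluster alone (adjusted p 0.0572), and I/R replicate 3 was the lowest of the I/R mice in each of these 5 genes.

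By place in the ribosome, 20 of 43 large-subunit genes, 19 of 31 small-subunit genes and 3 of 3 stalk genes were called higher in fibroblasts, with median log2 differences of 0.55, 0.54 and 0.92. Called higher among the genes set for naming were also Rplp0 (0.92) and Rplp2 (0.58) of the stalk, Rpl41 (0.93), which encodes the smallest ribosomal protein, Rpl36a (0.92), Rps28 (0.78), Rps6 (0.78), Rps27a (0.71), Rpl10a (0.69), Rpl22 (0.60) and Rps24 (0.54). Rpl5 (0.64) and Rpl11 (0.49), which reach the ribosome together and can bind the p53 regulator Mdm2, were called as well. Rps29 was not: it had 124, 149 and 135 CPM in sham and 168, 148 and 127 in I/R, which overlap (0.11, SE 0.14, limma adjusted p 0.686). Rpl38 (0.39), Rps27 (0.34), Rpl10 (0.45), Rpl13a (0.51) and Rpl39 (0.64, limma adjusted p 0.0539) also missed the threshold, as did the paralogs Rpl22l1 (0.38), Rps27l (0.40) and Rpl36al (0.56) and the non-subunit genes Rpl7l1 (0.16) and Rps19bp1 (−0.10).

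In myeloid cells 26 of 83 genes were called higher and 1 lower in I/R, against 10.1% and 7.56% of 10890 genes. The median over the 83 was 0.50, against 0.09 over all genes, and 53 had all I/R mice above all sham mice (20.9% of all genes). The count was 12 without sham replicate 1 and 10 without I/R replicate 2. In the cluster led by Cd163 alone, 0 of 83 were called by limma (1.68% and 2.72% of genes higher and lower), with 23 (27.7%) at an unadjusted p under 0.05, against 19.4% of all genes, and a median of 0.34. Rps9 (0.64, limma adjusted p 0.0504) and Rpl3 (0.73, adjusted p 0.0869) lost their calls there.

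Rpl3 again had the largest rise, with 48.5, 62.6 and 49.3 CPM in sham, 131, 133 and 97.0 in I/R, and 116, 135 and 86.0 in SBP (1.15, SE 0.20, limma adjusted p 0.00240). Rps27a had 58.2, 96.1 and 68.2 CPM in sham, 149, 168 and 126 in I/R, and 119, 147 and 89.6 in SBP (1.00, SE 0.22, adjusted p 0.00853). In both genes I/R lay above sham, and for Rps27a SBP overlapped sham. Clhc1 overlaps Rps27a on the opposite strand.

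Rps9, a protein that guides the accuracy of decoding, was the gene with the smallest p in myeloid cells. It had 121, 131 and 121 CPM in sham, 243, 268 and 221 in I/R, and 175, 188 and 157 in SBP, so the 3 groups did not overlap. The log2 difference of I/R from sham was 0.96 (SE 0.14, limma adjusted p 0.000998). By size of the log2 difference, and not by p, Rplp0 (0.95, SE 0.21, adjusted p 0.00807) and Rps19 (0.91, SE 0.19, adjusted p 0.00597) followed.

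Among the genes set for naming, Rpsa (0.90), Rpl41 (0.89), Rps3 (0.82), Rplp1 (0.74), Rpl5 (0.64), Rpl10a (0.60) and Rpl22 (0.56) were also called higher in myeloid cells. Not called were Rplp2 (0.37), Rps6 (0.65), Rps28 (0.62), Rpl11 (0.52), Rpl10 (0.50), Rpl36a (0.47), Rpl36al (0.48), Rpl39 (0.61), Rpl13a (0.36), Rpl22l1 (0.33), Rps24 (0.27), Rpl38 (0.20), Rps27l (0.17), Rps29 (0.13), Rps27 (−0.15), Rpl7l1 (0.56) and Rps19bp1 (0.36). By place in the ribosome, 14 of 43 large-subunit, 10 of 31 small-subunit and 2 of 3 stalk genes were called.

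In endothelial cells 1 of 84 genes, Rpl36a, was called higher and 0 lower in I/R (1.84% and 1.29% of 12213 genes). Rpl36a had 30.5, 41.5 and 40.1 CPM in sham, 59.6, 65.4 and 58.3 in I/R, and 49.4, 47.4 and 47.2 in SBP. The 3 groups did not overlap (0.70, SE 0.15, limma adjusted p 0.0297). The median over the 84 was 0.32, 39 had an unadjusted p under 0.05 (46.4%, against 17.9% of all genes), and 41 had all I/R mice above all sham mice (10.7% of all genes). Rps19 (0.61, adjusted p 0.0508), Rpsa (0.61, adjusted p 0.0554), Rps3 (0.66, adjusted p 0.0668) and Rplp0 (0.48, adjusted p 0.0710) were near the threshold. The count was 0 without sham replicate 1, sham replicate 2 or I/R replicate 2, and 2, 3 and 7 without SBP replicate 2, I/R replicate 1 and I/R replicate 3. In the main endothelial cluster alone, Rpl36a (0.87), Rps3 (0.74) and Rps19 (0.61) were called higher and Rpl3l (−1.16) lower (2.69% and 2.43% of genes), and in the cluster led by Tmem108 and Nrg1 the count was 0, with 19 (23.2%) at an unadjusted p under 0.05, against 12.7% of all genes (0.296% and 0.0918% of genes called higher and lower).

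In cardiomyocytes 0 of 84 genes were called by limma in I/R, where 0.652% of 12879 genes were called higher and 0.163% lower. The median over the 84 was 0.27, against −0.03 over all genes, with 21 (25.0%) at an unadjusted p under 0.05, against 14.1% of all genes, and 22 had all I/R mice above all sham mice (8.08% of all genes). Among the smallest p-values were those of Rps28 (0.60, SE 0.16, adjusted p 0.139), Rpl3 (0.69, adjusted p 0.148), Rps14 (0.71, adjusted p 0.187) and Rpsa (0.68, adjusted p 0.195). Rps28 had 25.5, 35.1 and 30.0 CPM in sham, 47.4, 40.7 and 49.6 in I/R, and 40.9, 42.9 and 40.9 in SBP, and neither I/R nor SBP overlapped sham. Without I/R replicate 1 the count in cardiomyocytes was 5.

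Whether the effect of I/R differed between types was tested on the within-mouse difference of each type from cardiomyocytes. No ribosomal protein gene was called by limma, and the smallest adjusted p was 0.610 for endothelial cells, 0.163 for fibroblasts and 0.145 for myeloid cells, where 0.0352%, 2.12% and 5.46% of all genes were called. At an unadjusted p under 0.05 there were 0, 5 (5.95%) and 5 (6.02%) genes, below the 11.3%, 18.7% and 23.6% of all genes. The median of the difference was 0.26 in fibroblasts (positive in 78 of 84 genes), 0.24 in myeloid cells (71 of 83) and 0.02 in endothelial cells (48 of 84). A difference in effect between these types was therefore not shown for any single gene.

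**Figure D4:**
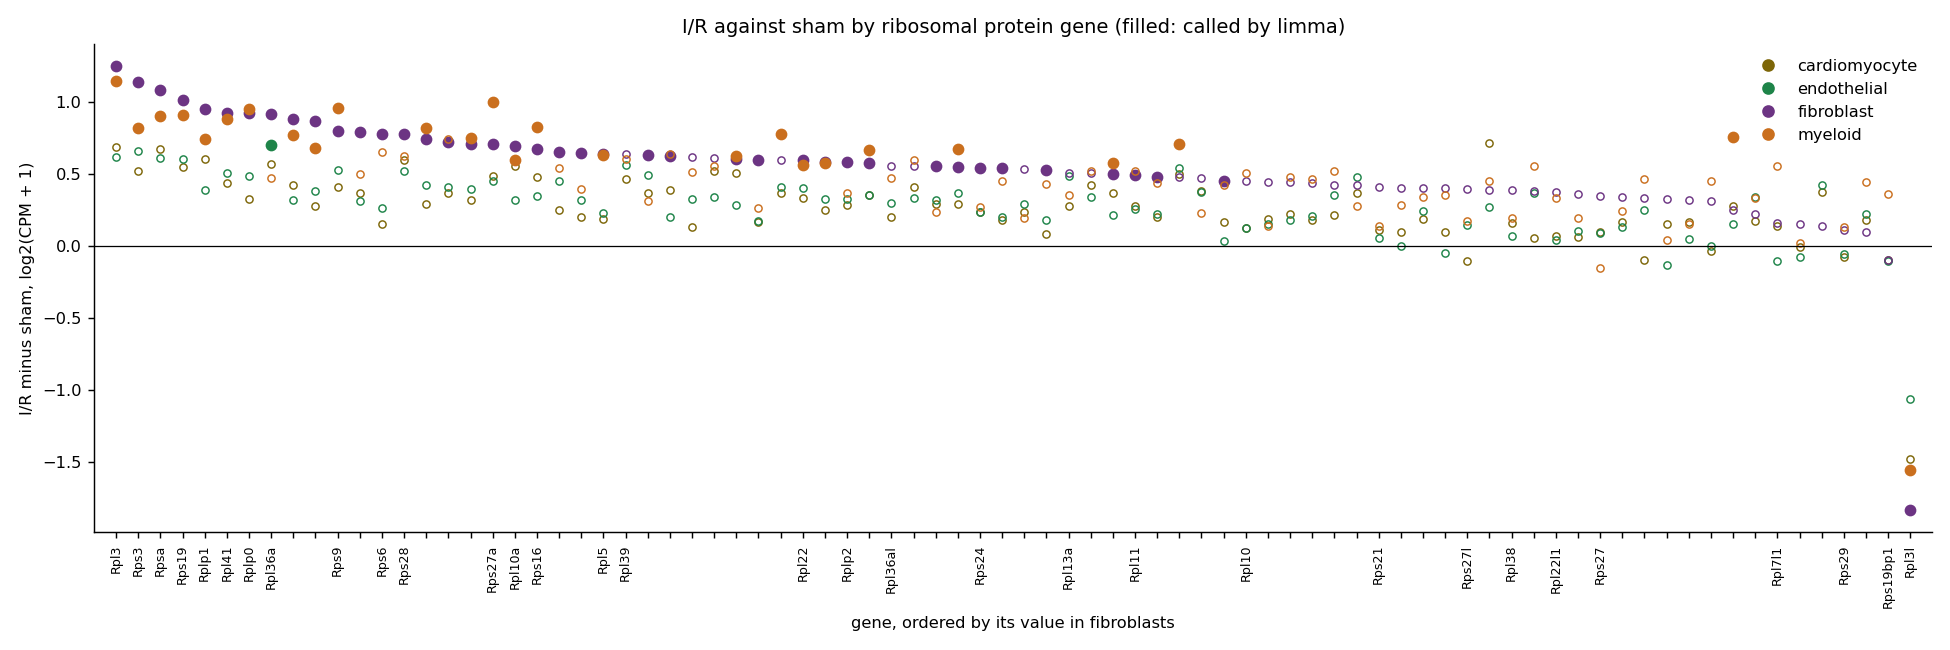
Difference between I/R and sham for 82 ribosomal protein genes (log2, y axis) in 4 cell types, with filled points for genes called by limma and names under the genes set for naming and Rps9, Rps16 and Rps21. Most filled points are those of fibroblasts and myeloid cells, Rpl3l is the gene called lower, and in cardiomyocytes none is called.

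In the sum over all nuclei, which also moves with the mix of cell types, 24 of 84 genes were called higher and 1 lower in I/R (6.01% and 5.46% of 16066 genes), and 55 had all I/R mice above all sham mice (14.6%). The largest rises were those of Rpl3 (1.01, SE 0.18, limma adjusted p 0.0115), Rpsa (0.81), Rps9 (0.77), Rps3 (0.76) and Rps19 (0.73). The count depended on single mice. It was 3 without sham replicate 3, 4 without sham replicate 1 or I/R replicate 2, 14 to 16 without I/R replicate 1, sham replicate 2, SBP replicate 1 or SBP replicate 3, and 42 without I/R replicate 3.

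Rpl3l went against the other genes. In cardiomyocytes it had 271, 215 and 211 CPM in the sham mice, 209, 39.0 and 67.0 in I/R, and 58.2, 94.4 and 99.7 in SBP. All I/R and SBP mice lay below all sham mice, but I/R replicate 1 was close to sham, and the log2 difference of I/R from sham (−1.48, SE 0.49) was not called (limma adjusted p 0.211). Without I/R replicate 1, the mouse nearest sham, it was −2.15 (adjusted p 0.00284). Leaving out each of the 9 mice in turn, the difference ran from −2.15 to −0.96. SBP against sham gave −1.48 (adjusted p 0.239), and −1.47 (adjusted p 0.0178) without I/R replicate 1, which enters the spread that all 3 groups share. Rpl3 had 20.2, 27.2 and 19.0 CPM in sham, 30.0, 44.9 and 34.4 in I/R, and 33.5, 32.0 and 29.6 in SBP.

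Of the UMIs of both paralogs in cardiomyocytes, Rpl3l made up 93.0%, 88.8% and 91.7% in sham, 87.4%, 46.5% and 66.1% in I/R, and 63.5%, 74.7% and 77.1% in SBP. The share of cardiomyocyte nuclei with a Rpl3l UMI was 56.3% ± 3.17 for sham mice, 34.6% ± 20.5 for I/R mice and 31.5% ± 6.99 for SBP mice. In types that should lack the gene, the sham share was 4.59% ± 0.349 of endothelial nuclei, 3.77% ± 1.03 of fibroblast nuclei and 3.27% ± 1.15 of myeloid nuclei, at median depths of 1183, 1632 and 1455 UMIs against 4181 in cardiomyocytes. No test separated background from expression in these types. Across types Rpl3l was the highest in cardiomyocytes in 9 of 9 mice (log2 difference 3.86, SE 0.13), while fibroblasts (2.53 to 26.4 CPM) and myeloid cells (3.11 to 23.1 CPM) overlapped.

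Rpl3l was also lower after I/R outside cardiomyocytes. In fibroblasts it had 21.1, 29.7 and 17.1 CPM in sham, 7.60, 2.83 and 7.15 in I/R, and 8.42, 4.55 and 5.94 in SBP, and I/R and SBP lay below sham (−1.84, SE 0.35, limma adjusted p 0.00559). In myeloid cells the log2 difference was −1.56 (adjusted p 0.0152), in endothelial cells −1.06 (adjusted p 0.0513) and over all nuclei −1.92 (SE 0.42, adjusted p 0.0205). As a percentage of the UMIs of the 13 cardiomyocyte transcripts, Rpl3l UMIs in endothelial cells were 0.381% ± 0.0735 (sham), 0.392% ± 0.0381 (I/R) and 0.324% ± 0.151 (SBP). In fibroblasts they were 0.441% ± 0.0916, 0.284% ± 0.0934 and 0.299% ± 0.0478, in myeloid cells 0.366% ± 0.0320, 0.315% ± 0.146 and 0.208% ± 0.0426, and in cardiomyocytes themselves 2.20% ± 0.504, 1.30% ± 1.05 and 0.879% ± 0.278. The part of free cardiomyocyte RNA in these values was not tested.

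**Figure D5:**
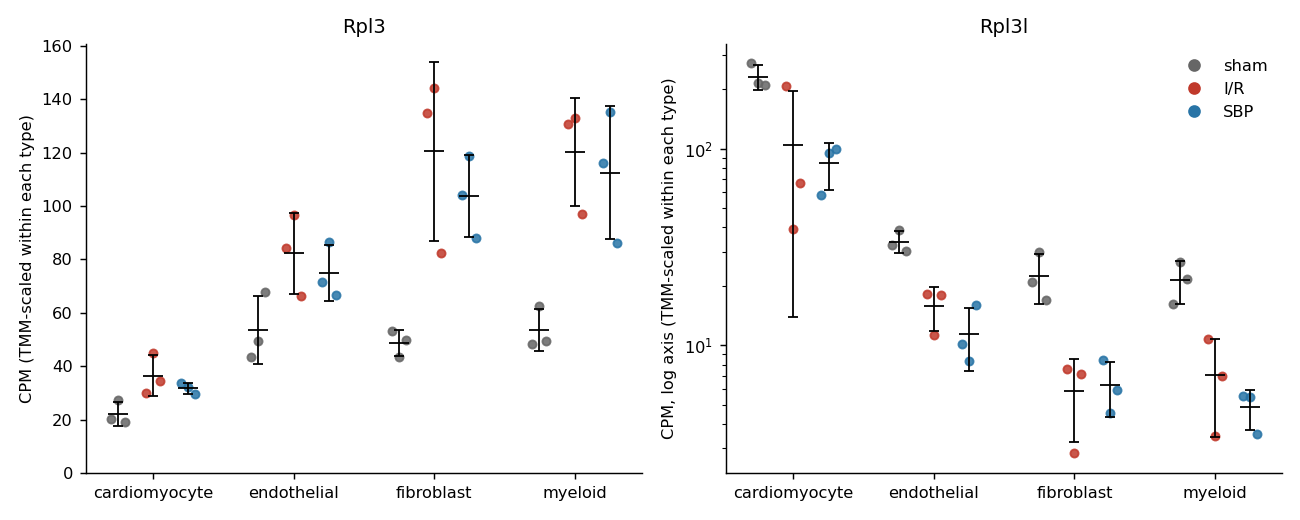
Rpl3l and Rpl3 (CPM, log axis for Rpl3l) in each mouse by cell type and group. In cardiomyocytes I/R replicate 1 sits at 209 CPM of Rpl3l near the sham mice, and the other I/R mice at 39.0 and 67.0.

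Genes tied to the ribosome were read from lists. Of the ribosomal protein genes with other symbols, Fau and Rack1 were called higher in fibroblasts after I/R (0.74 and 0.64). In endothelial cells Fau was called (0.60), and in cardiomyocytes and myeloid cells neither was. Of 18 translation factors and other genes with TOP messages, 6 were called higher in fibroblasts, 4 in myeloid cells, 2 in endothelial cells and 1 in cardiomyocytes, and 0 lower. In the same order, 6.51%, 10.1%, 1.84% and 0.652% of all genes were called higher. Eef1a1, the elongation factor that brings aminoacyl-tRNA to the ribosome, was called in all 4 types, with 1.17 in fibroblasts, 1.40 in myeloid cells, 1.02 in endothelial cells and 1.44 in cardiomyocytes (limma adjusted p 0.00122, 0.000275, 0.0123 and 0.00329). Pabpc1, the poly(A)-binding protein, was called in fibroblasts (0.78), myeloid cells (1.07) and endothelial cells (0.63).

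Of 46 ribosome biogenesis genes, 2 were called higher in fibroblasts (Eif6, 0.93, and Wdr75, 0.71) and 2 of 43 tested in myeloid cells (Heatr1, 2.05, and Utp15, 0.86), with medians of 0.22 and 0.32. None was called in cardiomyocytes or endothelial cells, where 0.652% and 1.84% of all genes were called higher and 0.163% and 1.29% lower. Over all nuclei 4 were called higher and 1 lower, where 6.01% and 5.46% of all genes were called. The counts in fibroblasts and myeloid cells are below the shares of all genes called higher there, 6.51% and 10.1%. A list of 26 genes around mTOR, Larp1, Myc and Atf4 was also read. Of 25 tested in fibroblasts, 1, Myc, was called higher (1.24), against 6.51% of all genes. Of 24 tested in myeloid cells, Sesn2 (1.07) and Akt1s1 (0.84) were called higher and Sesn1 (−0.92) lower, against 10.1% and 7.56% of all genes. Of 3 noncoding hosts with TOP starts that the tables hold, Snhg6 was called higher in fibroblasts (0.87). Among 4 nuclear-retained RNAs, Neat1 was called higher in myeloid cells (0.77), and no hemoglobin gene was called.

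Of 77 genes for ribosomal proteins of the mitochondrion tested in fibroblasts, 1 was called higher and 4 lower (median −0.21), where 6.51% and 5.22% of all genes were called. The count called lower is near that share, and the count called higher is below it. Of 74 tested in myeloid cells 1 was called higher and 0 lower, against 10.1% and 7.56% of all genes. Over all nuclei 0 of 78 were called higher and 9 lower, against 6.01% and 5.46% of all genes. No test compared these genes with the cytosolic ones. Respiratory chain genes were called lower for 52 of 76 in fibroblasts, 50 of 76 in myeloid cells and 18 of 76 in endothelial cells, and for 0 of 77 in cardiomyocytes. Of the 13 cardiomyocyte transcripts, 11 were called lower in fibroblasts, 12 in myeloid cells, 11 in endothelial cells and 2 in cardiomyocytes. In these 4 types, in the same order, 5.22%, 7.56%, 1.29% and 0.163% of all genes were called lower. The part of free cytoplasmic RNA in any of these differences was not tested.

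SBP was compared with I/R, where the ligation and reperfusion were the same. The pill was given before ligation, and the paper reports different serum levels of LDH and cTnI in SBP and I/R mice. It also reports that SBP did not lower the infarct size measured by staining and did not prevent the loss of cardiomyocytes. The injury itself may have differed by some of these measures and not by others, and its part was not tested. By limma, 0 ribosomal protein genes were called in cardiomyocytes, endothelial cells, fibroblasts, myeloid cells or the sum over all nuclei, and 0% of all genes were called. At an unadjusted p under 0.05 there were 2, 8, 0, 3 and 3 genes (2.38%, 9.52%, 0%, 3.61% and 3.57%), against 2.15%, 5.21%, 3.53%, 3.78% and 4.49% of all genes. The log2 differences were small and mostly negative, with medians of −0.15 in cardiomyocytes (78 of 84 negative), −0.17 in endothelial cells (78 of 84), −0.15 in fibroblasts (77 of 84), −0.18 in myeloid cells (75 of 83) and −0.15 over all nuclei (80 of 84), against medians between −0.03 and 0.01 over all genes. All SBP mice lay below all I/R mice for 10, 13, 7, 13 and 12 genes (2.82%, 4.68%, 3.44%, 5.13% and 3.52% of all genes). They lay above all I/R mice for 0 ribosomal protein genes in each. Among all genes tested, in the same order, this held for 355 of 12879, 605 of 12213, 642 of 13077, 420 of 10890 and 795 of 16066. The genes are measured in the same nuclei and are not independent of each other, so these counts carry no p.

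In cardiomyocytes the smallest p-values included those of Rpl23a (−0.52, unadjusted limma p 0.0168), Rpl36al (−0.47), Rps27a (−0.39) and Rpl36a (−0.34). Rpl23a had 19.3, 20.4 and 25.4 CPM in I/R and 15.2, 13.4 and 15.6 in SBP, which did not overlap, and 19.7, 21.9 and 15.5 in sham. Over all nuclei they were those of Rps9 (−0.36, unadjusted limma p 0.0261), Rpl36al (−0.46), Rpl23a (−0.27), Rpl7l1 (−0.26) and Rps13 (−0.22). Rps9 had 140, 137 and 113 CPM in I/R, 105, 111 and 87.6 in SBP, and 72.5, 81.0 and 72.3 in sham, so SBP lay between the other groups. None passed adjustment (adjusted p 0.999 over all nuclei). In the fibroblast cluster led by Tnc, 0 of 81 genes were called by limma between SBP and I/R, with 0 at an unadjusted p under 0.05 (3.49% of all genes) and a median of −0.05.

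Against sham, SBP fibroblasts had 12 genes called higher and 1 lower (3.74% and 2.41% of all genes). The largest rises included those of Rpl3 (1.07, limma adjusted p 0.0105), Rps3 (0.87), Rpsa (0.78) and Rpl4 (0.77), and Rpl3l was lower (−1.69). Myeloid cells had 9 higher and 1 lower (7.18% and 5.32%), led by Rpl3 (1.04, adjusted p 0.00551), Rps19 (0.75), Rplp0 (0.74), Rpl4 (0.68) and Rpl12 (0.66), with Rpl3l at −1.94. Endothelial cells had 0 higher and Rpl3l lower (−1.52, adjusted p 0.0141), where 0.647% and 1.48% of all genes were called. Over all nuclei Rpl3 was higher (0.83) and Rpl3l lower (−1.92), where 1.62% and 1.73% of genes were called.

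In cardiomyocytes 0 genes were called by limma between SBP and sham (0.124% of all genes), with 4 (4.76%) at an unadjusted p under 0.05, below the 13.4% of all genes. The smallest p-values were those of Rpl3l (−1.48), Rps28 (0.46), Rps14 (0.60), Rpl3 (0.51) and Rpl12. The fibroblast count was 0 without SBP replicate 2, 2 without sham replicate 3, 3 without sham replicate 1 or SBP replicate 1, 6 without sham replicate 2 or SBP replicate 3, and 24 without I/R replicate 3. The myeloid count was 2 to 5 without any of the sham or SBP mice, the count over all nuclei was 0 without any of them and 3 and 4 without I/R replicates 2 and 3, and the endothelial count was 0 without sham replicate 2, sham replicate 3 or SBP replicate 1.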

How the data were processed

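Nuclei of frozen mouse heart tissue from below the ligation were profiled by 10x 3′ sNuc-seq in 9 mice. The authors aligned reads to mm10 with Cell Ranger after trimming with fastp, kept nuclei by gene number and mitochondrial share, removed mitochondrial genes and normalised with Seurat. The deposited values are natural log (ln) values of 1 plus UMIs per 10000 of each nucleus. UMIs were recovered from the steps of these values, and at least 99.999% lay within 0.1 of a whole number. Since the files hold no raw counts, limma was used and not the count test planned for them.

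Nuclei were clustered with scanpy 1.11.5 without the ribosomal protein genes (2000 variable genes, 30 components, 20 neighbours, Leiden resolution 0.3), and clusters were named from markers. A doublet caller marked 85 nuclei (0.173%), which were removed; at so low a share it was taken not to have worked. UMIs were summed per mouse and type, and log2(CPM + 1) with TMM factors was fitted with limma 3.58.1 (R 4.3.3; robust, with trend) over 3 groups, with Benjamini-Hochberg adjustment over all genes. A gene was tested where 3 samples reached the CPM that 10 UMIs make in a library of median size and where it had 15 UMIs or more in all. Fold changes on this scale understate those of low genes. Shares cover counting of UMIs only, and more UMIs (10329520 to 18205985 per sample) give less error. The limma procedure was tested on simulated data.

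The genes named were the paralog pairs, the stalk genes and further genes set as a list, and the 5 with the largest differences among those called (otherwise those with the smallest p). The members and lists were chosen with earlier results of these data known. Alternatives covered scaling, filter, pseudocount, cell typing, samples fitted and leaving out each mouse. Certain genes are not reported here by name or in the plots, though they count among the members.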

Additional observations from a re-analysis of the deposited data

How the results depend on the processing

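Of 562 alternative values for counts and shares, 479 stayed near the main value and 83 moved. Direction was not compared for counts, and a change of sign within the SD between mice counted as near for shares. Without single mice, SBP minus sham in cardiomyocytes ran from −0.0244 to 0.0329 percentage points. Of 9195 values for single genes, 8823 kept their side of the threshold, 287 lost the call and 85 gained it. The genes set for naming entered in every type and contrast where they passed the filter, also between SBP and I/R, where no gene was called. Most of the values therefore had no call to lose, and the 8823 do not measure how stable the calls are. No gene called in either fit changed sign. Signs of genes called in neither fit were not compared, and some changed, as for Rpl3l in cardiomyocytes between SBP and I/R (−0.53 to 0.68). Causes were not tested. For counts of genes called in I/R against sham, fibroblasts (43) had 23 with the 6 samples of the contrast alone and 6 in the main cluster, myeloid cells (27) had 0 in the cluster led by Cd163, and all nuclei (25) had 39 with total UMIs, 16 without a filter and 6 with 6 samples. Endothelial cells (1) had 2 with total UMIs, TMM without ribosomal protein genes, a pseudocount of 5, no filter, ribosomal protein genes kept in the clustering, doublets kept or nuclei of at least 1000 UMIs, 6 with marker scores, and 4 and 0 in their 2 larger clusters.

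For SBP against sham, cardiomyocytes (0) had 1 with 6 samples, fibroblasts (13) had 24 with 6 samples, 21 with marker scores and 0 in the main cluster, myeloid cells (10) had 4 without a filter, 16 with 6 samples and 0 in the cluster led by Cd163, and all nuclei (2) had 1 with total UMIs, 0 without a filter and 6 with 6 samples. Between types, total UMIs gave 63 in fibroblasts (16) and 35 in myeloid cells (11), to be read beside the shares of all genes given above for that scaling.

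As a mean over nuclei, the I/R minus sham difference in share was 0.0898 percentage points in cardiomyocytes, 0.276 in myeloid cells and 0.265 over all nuclei; in single clusters it was 0.144 in fibroblasts and 0.132 in myeloid cells, and SBP minus sham was 0.0902 and 0.0321.

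Samples with the same replicate number deviated together weakly at most (45 correlations from −0.398 to 0.297, 14 over 0.1), and the numbers were not taken to pair the mice. Median correlations of samples with the same and with unlike numbers were 0.123 and −0.064 in fibroblasts and 0.049 and −0.042 in myeloid cells. They were 0.029 and 0.015 in cardiomyocytes, −0.007 and −0.035 in endothelial cells, and 0.025 and −0.038 over all nuclei. With a replicate block, I/R against sham gave 39 calls in fibroblasts, 28 in myeloid cells, 2 in endothelial cells and 23 over all nuclei, and SBP against sham gave 13 in fibroblasts, 13 in myeloid cells and 1 over all nuclei.

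Leaving out each mouse in turn, the calls of I/R against sham ranged from 0 to 5 in cardiomyocytes, 0 to 7 in endothelial cells, 14 to 57 in fibroblasts, 10 to 25 in myeloid cells and 3 to 42 over all nuclei, and those of SBP against sham from 0 to 1, 0 to 1, 0 to 24, 2 to 15 and 0 to 4. Calls between types ranged from 80 to 83, 75 to 77, 13 to 28 and 9 to 13 in the 4 types. SBP against I/R, and the differences in I/R effect between types, gave 0 each time. The I/R minus sham share ranged from 0.0250 to 0.0823 percentage points in cardiomyocytes, 0.127 to 0.197 in endothelial cells, 0.279 to 0.406 in fibroblasts, 0.168 to 0.241 in myeloid cells and 0.161 to 0.234 over all nuclei.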
